A study of Arabidopsis thaliana with 8 samples.

Results

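The pathogenesis-related (PR) genes of Arabidopsis thaliana examined here are 8 loci, chosen as a list of identifiers from the 33602 genes of the deposited count table. They are PR1 (AT2G14610), the beta-1,3-glucanase genes PR2 (AT3G57260, symbol BGL2) and BG3 (AT3G57240), the thaumatin-like gene PR5 (AT1G75040), the basic chitinase gene HCHIB (AT3G12500), the hevein-like gene HEL (AT3G04720, symbol PR4), the defensin gene PDF1.2A (AT5G44420) and the glycosyl hydrolase gene AT4G16260. The list was selected on earlier results of the drug against its solvent (levels and fold changes of these genes), so the values of the 8 genes in that contrast are a description. No p-value is printed for them. Where a gene is said to pass the threshold of the all-gene test, that too is description and not evidence. RNA was sequenced from roots of Col-0 seedlings, wild-type plants of the standard laboratory accession, that were 14 days old. All had been grown on medium with dimethyl sulfoxide (DMSO), and were moved either to medium with 10 µM mebendazole (MBZ), a benzimidazole drug that binds tubulin of parasitic worms, or to medium with DMSO as the solvent control. Both treatments lasted 4 h, and each group has 4 libraries. The column names of the MBZ libraries hold the words DMSO, 4h and SM, so the drug treatment of a column rests on the sample titles.

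PR proteins are secreted or vacuolar proteins that plants accumulate after infection. Glucanases and chitinases cut the beta-1,3-glucan and chitin of fungal cell walls, hevein-like proteins bind chitin, defensins and thaumatin-like proteins act on fungal membranes, and PR-1 proteins bind sterols. PR1, PR2 and PR5 are the customary markers of the hormone salicylic acid, which acts through NPR1 and TGA transcription factors, while HCHIB, HEL and PDF1.2A are the customary markers of ethylene and jasmonate, whose signals meet at the transcription factors ERF1 and ORA59. Those factors bind the GCC box, WRKY factors bind the W box and TGA factors bind TGACG sites.

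The upstream sequences of 3 of the genes are shown because these genes had different outcomes. AT4G16260 had the largest change among those with enough reads to be tested, and HEL had the larger change of the measurable ethylene and jasmonate markers. PDF1.2A, nearly silent here, is the sole gene with a GCC box among the 7 whose windows are reported. Each run covers the 300 bases before the annotated gene start, 5′ to 3′ on the gene's own strand, from RefSeq assembly TAIR10.1. The windows are chr4:9201644-9201943, chr3:1286761-1287060 and chr5:17907639-17907938, all on the minus strand, and none overlaps another protein-coding gene. The gene bodies that follow, on the same assembly and strand, are chr4:9199972-9201643, chr3:1285425-1286760 and chr5:17906968-17907638. Capitals mark the GCC box (GCCGCC), the W box (TTGAC, or GTCAA on the other strand) and the TGA site (TGACG, or CGTCA on the other strand).
AT4G16260: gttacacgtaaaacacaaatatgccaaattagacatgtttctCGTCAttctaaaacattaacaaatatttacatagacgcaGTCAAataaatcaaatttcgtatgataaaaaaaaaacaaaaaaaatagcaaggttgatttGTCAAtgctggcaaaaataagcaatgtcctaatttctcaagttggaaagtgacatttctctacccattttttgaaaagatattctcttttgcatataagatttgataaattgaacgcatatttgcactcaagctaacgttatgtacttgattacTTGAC
HEL: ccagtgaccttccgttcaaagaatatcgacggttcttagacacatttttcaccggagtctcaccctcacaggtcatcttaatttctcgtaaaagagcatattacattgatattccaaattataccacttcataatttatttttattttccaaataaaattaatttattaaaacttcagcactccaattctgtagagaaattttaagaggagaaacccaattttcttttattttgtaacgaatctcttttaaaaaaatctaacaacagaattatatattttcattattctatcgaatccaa
PDF1.2A: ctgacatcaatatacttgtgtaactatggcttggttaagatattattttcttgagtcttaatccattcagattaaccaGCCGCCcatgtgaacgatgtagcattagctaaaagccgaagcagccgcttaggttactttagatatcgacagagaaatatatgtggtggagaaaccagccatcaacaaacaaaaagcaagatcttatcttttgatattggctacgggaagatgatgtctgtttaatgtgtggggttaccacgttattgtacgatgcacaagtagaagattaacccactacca

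The window of AT4G16260 holds 3 W boxes and 1 TGA site, that of PDF1.2A holds 1 GCC box, and that of HEL holds none of these. PR2 has a W box and a TGA site that share 4 letters, as well as a G box (CACGTG). PR5 has 1 W box, and HCHIB and BG3 have 1 TGA site each. Among the windows of 27443 nuclear protein-coding genes, both strands searched, 50.4% held at least 1 W box, 21.3% a TGA site, 7.09% a G box and 2.26% a GCC box. The share of windows with 3 W boxes was not counted. A match is a run of letters and not a measured binding site, and a window without a match says nothing of bases farther upstream or beyond the annotated start.

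**Figure D1:**
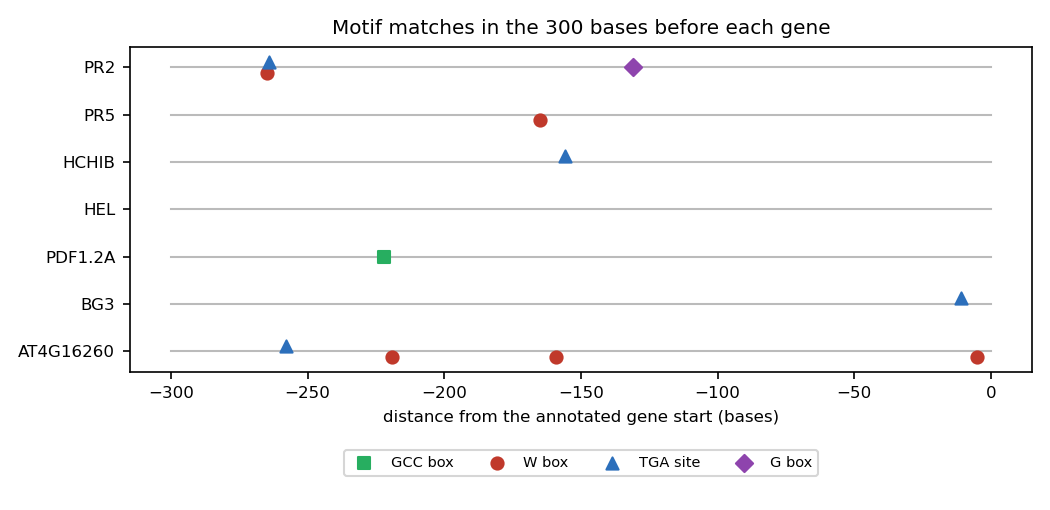
Positions of motif matches in the 300 bases before each of 7 genes, as distance in bases from the annotated gene start; symbols stand for the GCC box, the W box, the TGA site and the G box, at the base of the match farthest from the start. AT4G16260 carries 3 W boxes, PDF1.2A the single GCC box, and HEL no match.

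Library totals ran from 38042437 to 54818801 counts, at which 3 counts, taken as the limit a count of 0 allows, equal 0.0551 to 0.0786 CPM (counts scaled to library depth with TMM factors). Values after ± are SDs over the 4 libraries of a group unless marked SE. Intervals and limits cover counting error alone. The spread between replicates was small, with a common biological coefficient of variation of 1.91%, and no label says that the 4 libraries of a group came from separate cultures, so p-values measure the spread between these libraries. Of the 10 root marker genes, which include PYK10 and SCR, all were detected, with summed levels of 15465 to 15731 CPM in DMSO and 9798 to 9825 CPM in MBZ. Most of the sum was PYK10, which went from 13992 ± 100 to 8568 ± 10.6 CPM. Of those 10 genes, 2 rose and 8 fell. Apart from PYK10, their log2 fold changes ran from -0.65 (BGLU22) to 0.54 (EXPA7). Of 10 leaf markers, 9 passed the count filter and all 9 fell, with summed levels of 68.6 to 71.9 CPM in DMSO and 33.04 to 35.9 CPM in MBZ; the remaining marker, RBCS1B, had 0 to 3 counts in the DMSO libraries and 0 in the MBZ libraries. The morning clock genes CCA1 and LHY, chosen after their values were seen, went from 12.2 ± 0.561 to 1.62 ± 0.193 CPM and from 17.7 ± 0.235 to 1.64 ± 0.331 CPM, and the labels give no time of day. The part of root and leaf cell makeup or of the clock in the differences described here was not tested. In bulk samples, fewer cells of a type and less RNA per cell cannot be told apart.

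The salicylic acid markers were nearly silent in these roots, under either treatment. PR1 had 1, 0, 2 and 2 counts in the DMSO libraries and 11, 7, 13 and 4 in the MBZ libraries. Every MBZ library lay above every DMSO library, yet the highest MBZ level was 0.292 CPM. Over the summed counts, 5 in DMSO and 35 in MBZ, the ratio of MBZ to DMSO at equal depth was 7.46, with an exact 95% interval from 2.91 to 24.4 for counting error. PR1 stayed below the filter on low counts.

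PR2 encodes the acidic beta-1,3-glucanase that is read together with PR1 in most assays of salicylic acid. It had 56, 27, 27 and 16 counts in DMSO and 25, 11, 19 and 12 in MBZ, so that the groups overlapped. DMSO libraries averaged 0.641 ± 0.311 CPM and MBZ libraries 0.362 ± 0.0957 CPM, which in the all-gene fit gave a log2 fold change of -0.81 ± 0.27 (SE). That value leans on DMSO replicate 1, the library with 56 counts: without it the log2 fold change was -0.41, and the gene no longer passed the threshold of the all-gene test. PR5 had 0, 0, 3 and 4 counts in DMSO and 0, 0, 0 and 1 in MBZ. At these counts the ratio of MBZ to DMSO, 0.152, has an exact 95% interval from 0.00338 to 1.18, and no difference was detectable at this depth. The summed leaf markers were at 68.6 to 71.9 CPM in DMSO and 33.04 to 35.9 CPM in MBZ. Whether leaf RNA had a part in the PR2 or PR5 counts was not tested.

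The ethylene and jasmonate markers did not move together. HEL encodes a chitin-binding protein with a hevein domain. It was at 204.8, 194.6, 194.3 and 203.3 CPM in DMSO and at 381.2, 405.3, 385.3 and 408.2 CPM in MBZ. All MBZ libraries were higher than all DMSO libraries, with a log2 fold change of 0.99 ± 0.02 (SE), a 1.98-fold rise in level. HCHIB, the basic chitinase stored in the vacuole, went the other way. It was at 78.2, 71.4, 75.9 and 72.8 CPM in DMSO and at 51.1, 50.1, 51.2 and 49.9 CPM in MBZ, again without overlap. Its log2 fold change was -0.56 ± 0.03 (SE), or 1.47-fold lower in MBZ. Within each library, the level of HEL per base of exon exceeded that of HCHIB by 3.10 to 3.38 times in DMSO and by 9.02 to 9.90 times in MBZ. A noncoding gene on the other strand, AT3G12502, overlaps HCHIB. The strand setting of the counting is not given in the sources used here, so reads of the pair cannot be separated.

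PDF1.2A, the defensin gene used as the standard reporter of combined ethylene and jasmonate signalling, had 1, 1, 0 and 1 counts in DMSO and 0, 1, 1 and 0 in MBZ. Both groups lie under the limit of 3 counts per library, and no fold change is given. Its close copies were as silent: PDF1.2B had 0 counts in all 8 libraries, and PDF1.2C and PDF1.3 had at most 1 count in any library. Reads of these near-identical genes could be shared between them, so each of these counts is uncertain.

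AT4G16260 is annotated as a putative beta-1,3-endoglucanase that binds an effector protein of a cyst nematode and may act in host defence. Of the 4 genes that passed the count filter it had the largest fold change. Its levels were 283.6, 287.3, 293.1 and 290.1 CPM in DMSO and 1965, 1969, 1920 and 1912 CPM in MBZ. The 4 MBZ libraries lay close together and far above the DMSO libraries, with a log2 fold change of 2.75 ± 0.01 (SE), or 6.73-fold. Among the 17872 genes for which the authors deposited length-scaled levels (RPKM), it stood at rank 451 by mean level in DMSO and at rank 19 in MBZ. HEL moved from rank 401 to rank 119, and HCHIB from rank 2049 to rank 3169. BG3, by contrast, had a single read (1 count) among all 8 libraries, in MBZ replicate 4.

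**Figure D2:**
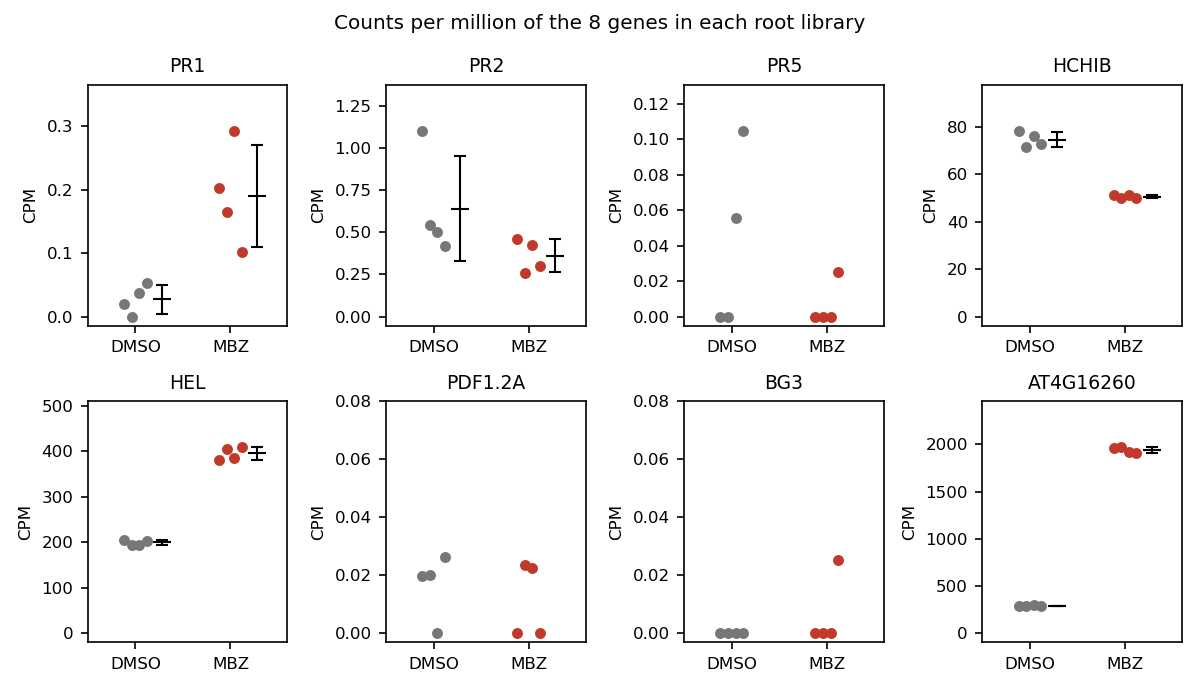
CPM of the 8 genes in each library, with an axis of its own for each gene; points are libraries, and bars show mean ± SD of the 4 libraries, left out for PR5, PDF1.2A and BG3, which had at most 4 counts in a library. AT4G16260 and HEL sit higher in all 4 MBZ libraries, HCHIB sits lower, and PR1 separates at levels below 0.3 CPM.

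Of the 8 genes, 4 passed the count filter (PR2, HCHIB, HEL and AT4G16260) and 4 did not. All 4 that passed were beyond an adjusted p of 0.05 in edgeR's quasi-likelihood test over all genes, 2 higher and 2 lower, where 66.5% of all 20867 tested genes were, 32.9% higher and 33.6% lower. In HCHIB, HEL and AT4G16260, 3 of the 4 that passed the filter, the groups did not overlap, as was the case for 59.0% of tested genes. They did not overlap in PR1 either, which is not among the tested genes. Since the contrast was known when the genes were listed, nothing is read from these shares.

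Levels of different genes were compared per length, as RPKM computed with exon lengths of the RefSeq annotation. In DMSO the order of level was AT4G16260 (200.8 ± 3.16 RPKM), HEL (176.7 ± 4.62), HCHIB (54.6 ± 2.29) and PR2 (0.437 ± 0.212). PR5, PR1 and PDF1.2A followed at 0.0368 ± 0.0463, 0.0304 ± 0.0251 and 0.0286 ± 0.0198 RPKM and did not differ beyond their spread, and BG3 was at 0 counts. In the authors' RPKM values, which rest on other gene lengths, the top of the DMSO order was reversed, with HEL at 240.8 ± 6.31 and AT4G16260 at 221.8 ± 3.47 RPKM. In MBZ the order of the leading genes was the same by either length: AT4G16260 (1336 ± 20.2 RPKM with RefSeq lengths), HEL (346.3 ± 12.005) and HCHIB (36.6 ± 0.496). PR2 and PR1, at 0.244 ± 0.0644 and 0.210 ± 0.0881 RPKM, did not differ beyond their spread in MBZ.

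AT4G16260, PR2 and BG3 belong to the glycosyl hydrolase family 17 (GH17), whose plant members hydrolyse beta-1,3-glucans of fungal walls and of the plant's own callose. The annotation holds 51 GH17 genes. AT4G16260 had the highest level per length of the family in both groups, with 31.1% ± 0.517 of the summed family level in DMSO and 74.9% ± 0.427 in MBZ. The summed level of the other 50 genes was 444.3 ± 4.34 RPKM in DMSO and 448.4 ± 4.97 RPKM in MBZ. At this scaling, to total counts without TMM factors, the difference lay within the spread between libraries. Those factors were 1.004 to 1.009 in DMSO and 0.994 to 0.995 in MBZ, so with them the gap would be wider.

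**Figure D3:**
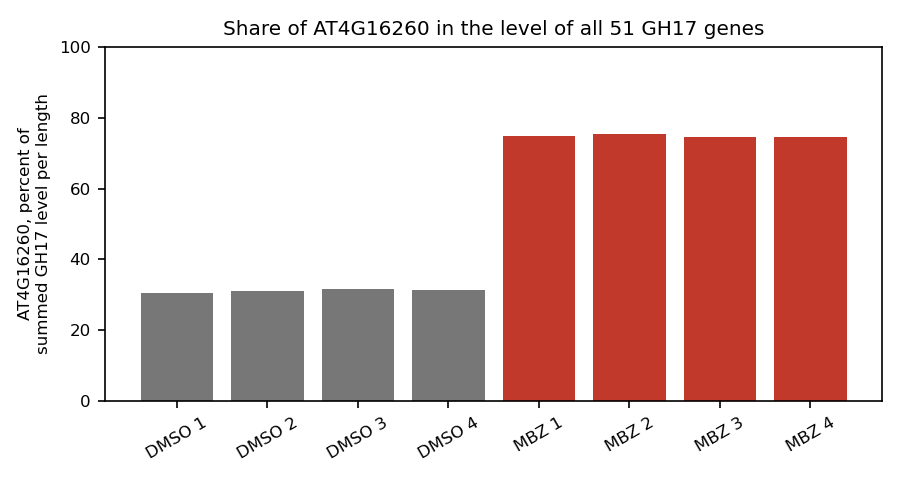
Share of AT4G16260 in the summed level per length of all 51 GH17 genes, as percent, in each library; bars are single libraries. The 4 DMSO libraries lie between 30.4% and 31.6%, and the 4 MBZ libraries between 74.5% and 75.4%.

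PR2 and BG3 stand near each other on chromosome 3 with another glucanase gene, BG1 (AT3G57270). BG1 had 0 counts in all libraries, as did AT3G57250, the gene between BG3 and PR2. The genes that flank this stretch were expressed: AGL16 (AT3G57230), a MADS-box transcription factor gene, rose from 57.9 ± 1.73 to 92.7 ± 3.65 CPM, and AT3G57280 from 42.3 ± 2.18 to 52.1 ± 0.862 CPM. Both were chosen after their values were seen, and their edgeR adjusted p-values were 1.75e-42 and 2.22e-15. The neighbours of AT4G16260 on chromosome 4, also chosen afterwards, were PHYD (AT4G16250), a phytochrome gene, with a log2 fold change of 0.94, and NRPB9B (AT4G16265), an RNA polymerase subunit gene, with 0.48, both smaller than the 2.75 of AT4G16260.

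Among the 48 other GH17 genes in the count table, 33 passed the filter, 5 rose and 16 fell. Thus 63.6% of the 33 were past the threshold, near the 66.5% of all tested genes, of which 32.9% were higher and 33.6% lower. Whether the family differed from other genes was not tested. The median log2 fold change was -0.09, against 0.00 over all tested genes, and no gene (0 of 33) changed at least 2-fold, a size reached by 7.79% of all tested genes. The largest rise was that of AT4G18340, from 90.1 ± 1.15 to 173 ± 3.52 CPM (log2 fold change 0.94, edgeR adjusted p 3.25e-61). AT1G11820, AT3G15800 and AT3G07320 rose by 0.46, 0.36 and 0.25 on the log2 scale. The largest falls were those of AT4G34480 (-0.84), AT5G56590 (-0.61), BG_PPAP (-0.51), which encodes a glucanase that degrades callose at plasmodesmata, and AT5G67460 (-0.47).

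HCHIB held 4.69% ± 0.190 of the summed level per length of the 23 chitinase genes in DMSO and 3.63% ± 0.0349 in MBZ, rank 5 and rank 6 of the family. Of 22 other chitinase genes, 18 passed the filter, 12 fell and 3 rose, with a median log2 fold change of -0.19, where 33.6% of all tested genes fell and 32.9% rose. Whether the family differed from other genes was not tested. CHIA, an acidic chitinase, fell from 51.8 ± 0.372 to 27.8 ± 1.39 CPM (log2 fold change -0.89, edgeR adjusted p 1.12e-43), and CHI (AT2G43570) from 33.2 ± 0.918 to 17.7 ± 0.707 CPM (-0.91, 5.54e-38). AT2G43580 and AT2G43610 had log2 fold changes of -1.23 and -0.61. The genes that rose were AT4G01700, from 18.3 ± 0.709 to 49.5 ± 1.298 CPM (1.44, edgeR adjusted p 1.04e-56), EP3 (0.29) and AT4G19720 (0.27). AT4G19750 and AT4G19760, below the filter and chosen after their values were seen, had 0 counts in every DMSO library and 4 to 11 and 3 to 10 counts in the MBZ libraries.

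Relatives of PR5 and of PR1 changed in both directions. Of 19 thaumatin-like genes, 15 passed the filter, 9 fell and 4 rose, with a median log2 fold change of -0.16 (over all tested genes, 33.6% fell and 32.9% rose). TLP1 (AT4G24180) fell from 11.2 ± 0.867 to 4.69 ± 0.298 CPM (log2 fold change -1.26, edgeR adjusted p 5.82e-30), and ATLP-1, AT1G73620 and AT4G38660 had log2 fold changes of -0.73, -0.64 and -0.62. AT4G36000 rose from 1.15 ± 0.0811 to 3.64 ± 0.260 CPM (1.68, edgeR adjusted p 3.3e-22), while AT4G36010, TLP-3 and AT5G24620 rose by 0.65, 0.14 and 0.09. Of 21 other genes of the CAP superfamily, to which PR1 belongs, 13 passed the filter, 9 rose and 4 fell, with a median of 0.45. The families were not compared with each other, or with all genes, by a test. AT4G33720 rose from 0.246 ± 0.0354 to 5.62 ± 0.660 CPM (4.48, edgeR adjusted p 4.4e-44). AT1G50060 went from 14.8 ± 1.001 to 36.5 ± 2.08 CPM (1.29), AT4G25790 from 11.6 ± 0.938 to 23.9 ± 0.856 CPM (1.04), and AT4G07820 from 14.4 ± 0.888 to 26.3 ± 0.629 CPM (0.87). PR-1-LIKE (AT2G19990), AT2G19970 and AT4G31470 had log2 fold changes of -0.38, -0.57 and -0.80, and PRB1 (AT2G14580), the basic PR-1 gene, had 0 counts in all libraries.

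**Figure D4:**
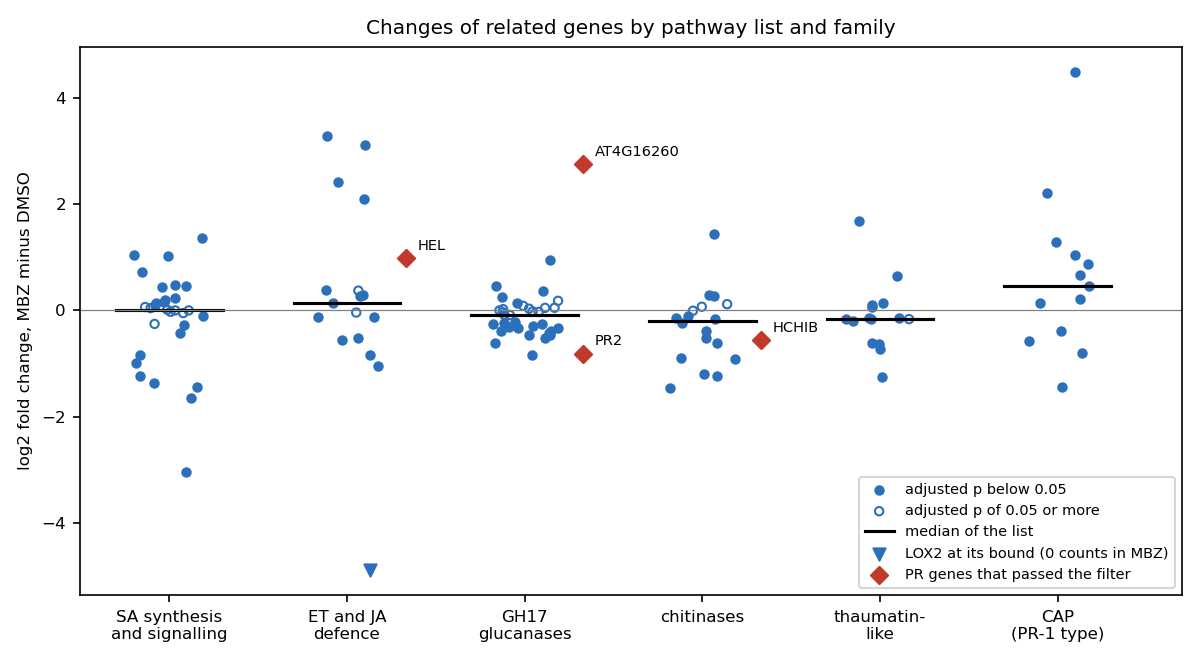
Log2 fold changes (MBZ minus DMSO) of the tested genes of each pathway list and family; each point is a gene, filled where the adjusted p was below 0.05, lines are medians, the triangle is LOX2 at its bound, and diamonds are HEL, AT4G16260, PR2 and HCHIB. AT4G16260 at 2.75 lies above every other tested GH17 gene, and HCHIB at -0.56 lies among chitinases of which 12 fell and 3 rose.

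Genes of salicylic acid synthesis and signalling changed in both directions. Of 32 listed, 30 passed the filter, 12 rose, 10 fell and 8 did not pass the test, with a median log2 fold change of 0.01. Thus 73.3% of the 30 were past the threshold, where 66.5% of all tested genes were, 32.9% higher and 33.6% lower. PAD4, a lipase-like partner of EDS1 in immune signalling, rose from 19.5 ± 0.579 to 49.9 ± 1.27 CPM (log2 fold change 1.36, edgeR adjusted p 1.45e-55). WRKY18, WRKY54 and SAG101, another EDS1 partner, rose by 1.04, 0.72 and 0.48 on the log2 scale. ALD1, an enzyme of pipecolic acid synthesis, fell from 4.49 ± 0.374 to 0.545 ± 0.120 CPM (-3.04, edgeR adjusted p 5.49e-35). PBS3, which conjugates glutamate to the salicylic acid precursor isochorismate, the transcription factor gene WRKY70 and CBP60G, an activator of salicylic acid synthesis, had log2 fold changes of -1.45, -1.37 and -0.99. ICS1, the isochorismate synthase gene, and the receptor gene NPR1 were chosen after their values were seen. ICS1 averaged 11.9 ± 0.905 CPM under DMSO against 12.5 ± 0.644 CPM under the drug (edgeR adjusted p 0.311), and NPR1 rose from 63.2 ± 1.11 to 71.99 ± 1.49 CPM (edgeR adjusted p 1.18e-10).

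Of 26 other ethylene and jasmonate defence genes, 17 passed the filter, 8 rose and 7 fell, with a median log2 fold change of 0.13. Past the threshold were 88.2% of the 17, against 66.5% of all tested genes, 32.9% higher and 33.6% lower. The rises were largest in transcription factor genes, which make up most of the tested genes of this list. ORA59 rose from 3.37 ± 0.453 to 17.6 ± 0.494 CPM (2.41, edgeR adjusted p 5.85e-52), ERF2 from 1.91 ± 0.202 to 16.5 ± 0.482 CPM (3.11, 8.78e-57) and NAC055 from 2.53 ± 0.416 to 10.9 ± 0.516 CPM (2.099, 5.48e-41), and ERF1 rose by 3.28 on the log2 scale. Among the genes that fell, VSP2 and VSP1, which encode vegetative storage proteins, had log2 fold changes of -0.84 and -0.55, the transcription factor gene ERF6 had -0.51, and MYC2, a central transcription factor of jasmonate signalling, had -0.12. LOX2, a lipoxygenase gene of jasmonate synthesis that is chiefly expressed in leaves, had 13 to 29 counts in the DMSO libraries and 0 in every MBZ library. Against 3 counts over the group it was at least 29.4-fold lower. LOX2 was named after its values were seen. The pathway lists were compiled from general knowledge with earlier results of these data known. Neither list was compared with the other, or with all genes, by a test.

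The genes whose profile over the 8 libraries was most like that of each PR gene were found among 19014 others (19015 for PR2) with a mean of at least 1 CPM, by the root mean square difference of log2 CPM centred on each gene's mean. For AT4G16260 it was AT3G20380, a TRAF-like family gene, at a difference of 0.0224, which went from 39.6 ± 0.515 to 263.1 ± 1.67 CPM. For HEL it was MYBR1 (AT5G67300), a MYB transcription factor gene, at 0.0345, which went from 57.5 ± 1.97 to 115.3 ± 1.5004 CPM. For HCHIB it was AAE7 (AT3G16910), an acyl-activating enzyme gene, at 0.0256, which went from 127 ± 3.29 to 85.5 ± 1.70 CPM. The closest gene to PR2, AT4G13440, an EF-hand gene, was at 0.341. For AT4G16260, HEL and HCHIB the spread within groups was small, so a close profile is chiefly a like log2 fold change. That change was 2.73 for AT3G20380, 1.01 for MYBR1 and -0.57 for AAE7. Shared regulation was not tested.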

How the data were processed

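The authors deposited a table of raw counts (33602 genes) and RPKM values of 17872 genes. Per the submitters' processing notes, STAR 2.7.0a, edgeR 3.36.0 and TAIR10 were used; the counting program, annotation and strand setting are not given in the sources used here. Per the labels' protocols, RNA came from frozen ground roots and libraries followed Illumina protocols.

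From the counts, edgeR 4.0.16 (R 4.3.3) with TMM factors, the filterByExpr filter and group as the single factor was fitted to all 8 libraries (20867 genes tested; Benjamini-Hochberg adjustment, threshold 0.05). Standard errors are the log2 fold change divided by the square root of F. DESeq2 1.42.0 and limma 3.58.1 served as alternatives. In simulated counts for 20867 genes, changes were set in a small random part of them, all well counted. The same spread was used for every gene. Of the changes set, 98% of those of 1.5-fold and 100% of those of 2-fold were recovered. Genes with as few reads as PR2 were not covered. All 12 pairs of replicates differed by more than sampling noise (chi-square per degree of freedom 1.60 to 2.40).

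Symbols came from RefSeq TAIR10.1 (32835 of 33602 identifiers matched, and all 8 PR genes); sequences, coordinates and exon lengths are from that assembly, and the upstream window of PR1 is not reported here. Families were found by product and domain words of that annotation. Named list genes are up to 4 per direction with the largest change, an adjusted p under 0.05 and a mean of at least 50 counts, plus the PR-1-like genes, copies of PDF1.2A and neighbours of PR2; the others are marked in the text. The PR genes and lists were chosen with earlier results of these data known.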

Additional observations from a re-analysis of the deposited data

Results flagged for a closer look

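Dixon's test was applied to the highest and lowest library of every group, for 56 measures and so 112 groups. Its ratio divides the distance of that library from its neighbour in rank by the range of the 4. BG3 in DMSO, with 0 counts in every library, has no range and so no ratio, but is counted among the 112. In 9 groups it passed the 95% limit (8.04%, where chance gives about 5%). For PR5 and for BG3 the ratio was 1, because MBZ replicate 4 held 1 read and the other MBZ libraries none. The summed root markers in MBZ had a ratio of 0.906, with replicate 2 at 9798 CPM against 9823 to 9825 CPM. Replicate 3 of MBZ was high for ERF6 (0.838; 16.7 CPM against 13.7 to 14.2) and low for AT4G34480 (0.837; 10.8 CPM against 11.5 to 11.7). Replicate 2 of MBZ was high for AT4G36010 (0.870; 12.8 CPM against 11.0 to 11.3). In DMSO, replicate 1 was high for NAC055 (0.943; 3.15 CPM against 2.30 to 2.35) and for PR-1-LIKE (0.896; 6.30 CPM against 5.32 to 5.42), and replicate 3 was low for VSP2 (0.960; 6.81 CPM against 7.07 to 7.08).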

How the results depend on the processing

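Under each alternative that gave a value, other than the test against a 1.5-fold change, the list genes named by the rule kept their direction and stayed past the threshold; 21 results missed it in that test. Requiring more than a 1.5-fold change left 2564 of 13877 called genes, and 2 of the 8 PR genes (HEL and AT4G16260). In that test 3 genes of the salicylic acid list were higher and 6 lower, 4 and 2 of the ethylene and jasmonate list, 1 and 1 of the GH17 family, 1 and 4 of the chitinases, 1 and 2 of the thaumatin-like genes, and 6 and 2 of the CAP genes. With no filter, and with DESeq2, 6 chitinases were higher rather than 3, since genes with few reads then entered the test; of the PR genes 5 were then called rather than 4. In each RPKM fit, and where genes averaging under 50 counts were left out, 3 PR genes were called. Leaving out each library in turn gave 13356 to 13596 called genes and 3 or 4 of the PR genes, with PR2 lost without DMSO replicate 1. Over the same fits the log2 fold change ran from 2.74 to 2.76 for AT4G16260, from 0.972 to 1.004 for HEL, from -0.58 to -0.54 for HCHIB and from -0.97 to -0.41 for PR2. Fold changes from limma on log2(RPKM + 1) understate genes of low level: AT4G33720 had 2.63, ALD1 -1.55, PBS3 -0.58, CBP60G -0.53 and AT4G36000 1.09. A replicate block gave 13786 called genes and 4 PR genes. Correlations of deviations between same-numbered libraries were -0.0503, -0.0275, 0.00901 and -0.0178. No shared effect of the number was visible, which cannot show how the samples were collected, and the labels do not say what the number stands for. Depth limits PR1, PR5, PDF1.2A and BG3, whose levels rest on a few reads.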
